A study of Mus musculus with 6 samples.

Results

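The genes described here are *Gad1*, *Gad2*, *Slc32a1*, *Dlx1*, *Dlx2*, *Lhx6*, *Sst*, *Npy* and *Calb2*, 9 of the 31053 genes in each file. They were chosen by name as genes of GABA synthesis and of interneuron identity, with earlier results of these data known. Ribo-STAMP joins a ribosomal protein to the deaminase rAPOBEC1, which turns C into U in RNA, so that mRNAs handled by the tagged ribosomes acquire edits. The series set fusions of several ribosomal proteins side by side for use in brain cells, and 3 bulk libraries each of RPL10A-STAMP and RPL22-STAMP, whose proteins are both of the large subunit, were analysed. Each value is an EPR, the edits found in a gene divided by the reads counted for it, and edited means an EPR above 0 throughout.

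All 6 libraries came from WT cortical neurons of C57BL/6J embryos, dissected at embryonic day 18 and cultured with floxuridine from DIV 3 to limit dividing cells. The neurons were infected with AAV at DIV 6, and 48 h of Dox at 1 μg per ml switched the fusion on ahead of harvest at DIV 14. All 6 libraries are labelled NT, which the paper uses for no treatment. Both groups share these conditions and differ in the fused ribosomal protein and in its place. By the methods, Rpl10a sits at the C terminus of APOBEC1 and Rpl22 at the N terminus. The protein and its place in the fusion cannot be told apart here. The construct is a Tet-On system under a neuronal (hSyn) promoter, which is not restricted to interneurons. The cultures hold several cell types in bulk, so that fewer cells of a type and less RNA per cell cannot be told apart. Libraries of RPS2-STAMP or of uninfected neurons were not used here, and the edits present without a fusion were therefore not subtracted. The reads behind each ratio are unknown, no counting interval could be given, and an EPR of 0 can mean no edits or no reads. The methods call the replicates biological, but no source used here says that they were separate cultures, so p-values measure only the spread between these libraries.

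Interneurons are the inhibitory neurons of the cortex, and they release GABA. GABA is made from glutamate by the glutamate decarboxylases GAD67 and GAD65, encoded by *Gad1* and *Gad2*, and loaded into synaptic vesicles by the transporter VGAT, encoded by *Slc32a1*. The homeodomain factors *Dlx1* and *Dlx2* specify these cells in the ventral forebrain, and *Lhx6* directs the lineage of the medial ganglionic eminence, from which somatostatin cells (*Sst*) and many neuropeptide Y cells (*Npy*) arise. *Calb2* encodes calretinin, a calcium-binding protein of another set of interneurons.

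rAPOBEC1 edits only C, so the Cs of an mRNA bound how many edits it can carry. The opening coding bases of the genes that make and load GABA, those with the clearest separation between the variants, are shown for this reason, 60 bases each from the start codon, 5′ to 3′ on the plus strand of GRCm38, with every C in capitals. They lie at chr2:70563832-70563891 (*Gad1*), chr2:22622663-22622722 (*Gad2*) and chr2:158611242-158611301 (*Slc32a1*). The position of the edits within these genes was not analysed here.
Gad1: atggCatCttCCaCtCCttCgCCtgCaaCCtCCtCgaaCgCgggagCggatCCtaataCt
Gad2: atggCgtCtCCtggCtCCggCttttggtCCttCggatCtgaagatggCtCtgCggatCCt
Slc32a1: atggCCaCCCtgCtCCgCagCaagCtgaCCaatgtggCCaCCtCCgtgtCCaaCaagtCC
The windows hold 22, 17 and 24 Cs. Over the whole coding sequence, C made up 24.6% of 1779 bases in *Gad1*, 22.6% of 1755 bases in *Gad2* and 32.0% of 1575 bases in *Slc32a1*, stop codons not counted.

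*Gad1* and *Gad2*, the genes of GABA synthesis, both had a higher EPR in every RPL22-STAMP library than in any RPL10A-STAMP library. Relative to the median gene, *Gad2* rose past the threshold of the test across genes, and *Gad1*, with the larger difference and the larger error, did not. *Slc32a1* showed the same order of libraries but could not enter that test.

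*Gad1* (ENSMUSG00000070880) occupies bases 70553072 to 70602014 of chromosome 2, plus strand (GRCm38, as are all positions here). Its EPR was 0.0110, 0.00682 and 0.00780 in the RPL10A-STAMP libraries, given here and below in the order of their replicate numbers. In the RPL22-STAMP libraries it was 0.0192, 0.0140 and 0.0162. The lowest RPL22-STAMP library was thus above the highest RPL10A-STAMP library, and replicate 1 was the highest of each variant. The RPL10A-STAMP mean was 0.00854 ± 0.00219 and the RPL22-STAMP mean 0.0165 ± 0.00260 (SD, n = 3 each), a ratio of 1.93 on the deposited scale. After each library was scaled to its median over the 8046 genes that were edited in each of the 6, the log2 fold change of RPL22-STAMP over RPL10A-STAMP, on the log2(EPR + 0.01) scale used for every fold change below, was 0.72 (standard error 0.21, 95% interval 0.23 to 1.22, limma adjusted p = 0.0639). The pseudocount of 0.01 is close to these values, so that the fold change understates the ratio. *Gad1* is among the genes that the study removed as Dox-induced.

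*Gad2* (ENSMUSG00000026787) occupies bases 22622205 to 22693874 of the same chromosome and strand. Its EPR was 0.00980, 0.0106 and 0.00839 in the RPL10A-STAMP libraries and 0.0140, 0.0159 and 0.0143 in the RPL22-STAMP libraries. These values varied less within a variant than those of *Gad1*, and again the groups did not overlap. The RPL10A-STAMP mean was 0.00961 ± 0.00113 and the RPL22-STAMP mean 0.0148 ± 0.00104 (SD, n = 3 each), a ratio of 1.54. *Gad2* had a log2 fold change of 0.54 (standard error 0.14, 95% interval 0.21 to 0.88, limma adjusted p = 0.0446). The call was lost when any 1 library was left out (log2 fold change 0.45 to 0.61) and without the scaling between libraries (0.34, limma adjusted p = 0.221). In the plot of both genes under each setting, the fold change was above 0 throughout.

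**Figure D1:**
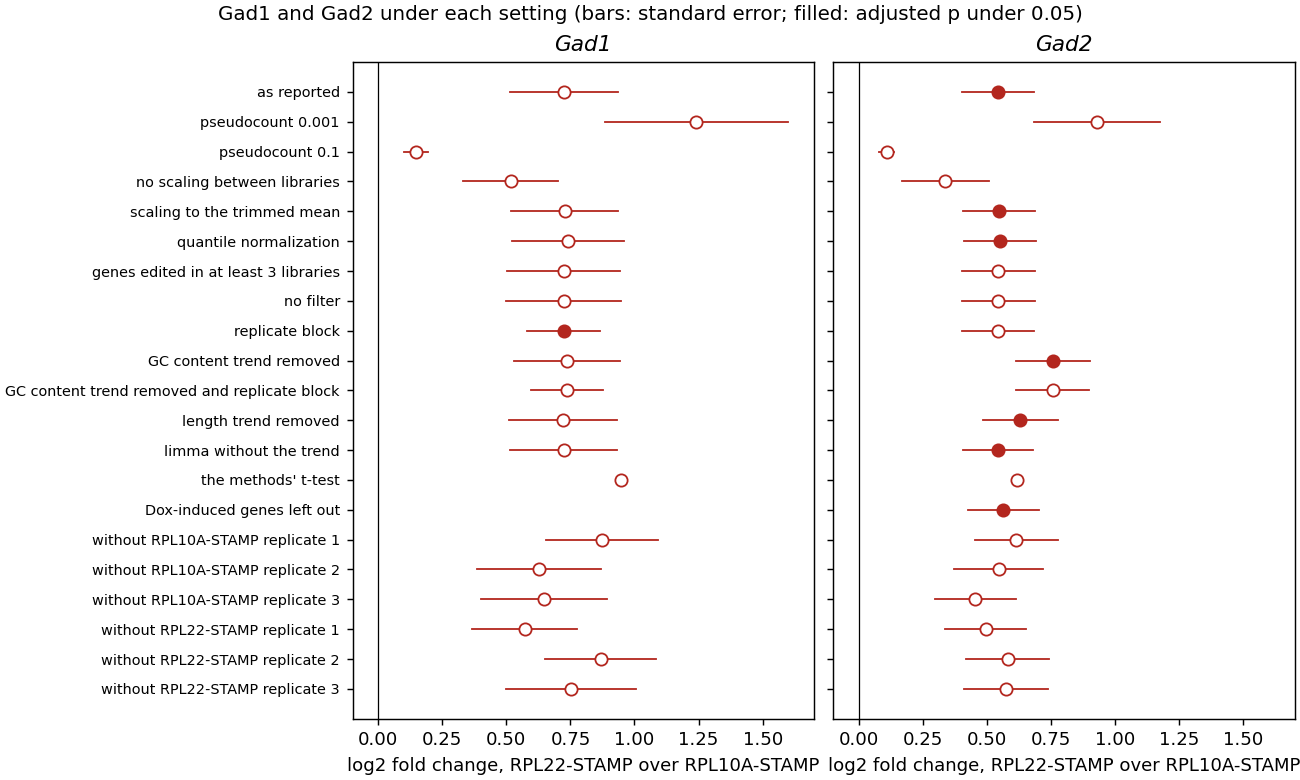
The log2 fold change of *Gad1* (left) and *Gad2* (right), RPL22-STAMP over RPL10A-STAMP, is plotted for the values as reported and for each alternative setting, with bars for the standard error (none for the methods' t-test) and filled points for an adjusted p under 0.05. *Gad1* runs from 0.15 to 1.24 and is filled in 1 alternative, and *Gad2* runs from 0.11 to 0.93 and is filled in 6 alternatives; the lowest and highest values belong to the pseudocounts of 0.1 and 0.001.

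*Slc32a1* (ENSMUSG00000037771) occupies bases 158610767 to 158615748 of chromosome 2, plus strand, and 24.9% of its exon bases are overlapped by *Gm14205* on the other strand. The library kit marks strand, but the strand setting of the read counting is not given in the sources used here, so reads of these genes may not be separated. Its EPR was 0.0108, 0 and 0.00527 in the RPL10A-STAMP libraries and 0.0153, 0.0171 and 0.0326 in the RPL22-STAMP libraries. RPL22-STAMP replicate 3 was about as far above the other RPL22-STAMP libraries as these were above 0, and the groups did not overlap. An exact permutation test gave p = 0.1 (two-sided), the smallest p that 3 libraries against 3 allow, so that this test cannot fall under 0.05. Because *Slc32a1* is listed at 0 in 1 library, it entered limma only under wider filters, with a log2 fold change of 1.23 and a limma adjusted p = 0.0904 among genes edited in at least 3 libraries (standard error 0.34), or 0.122 with no filter (standard error 0.35).

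**Figure D2:**
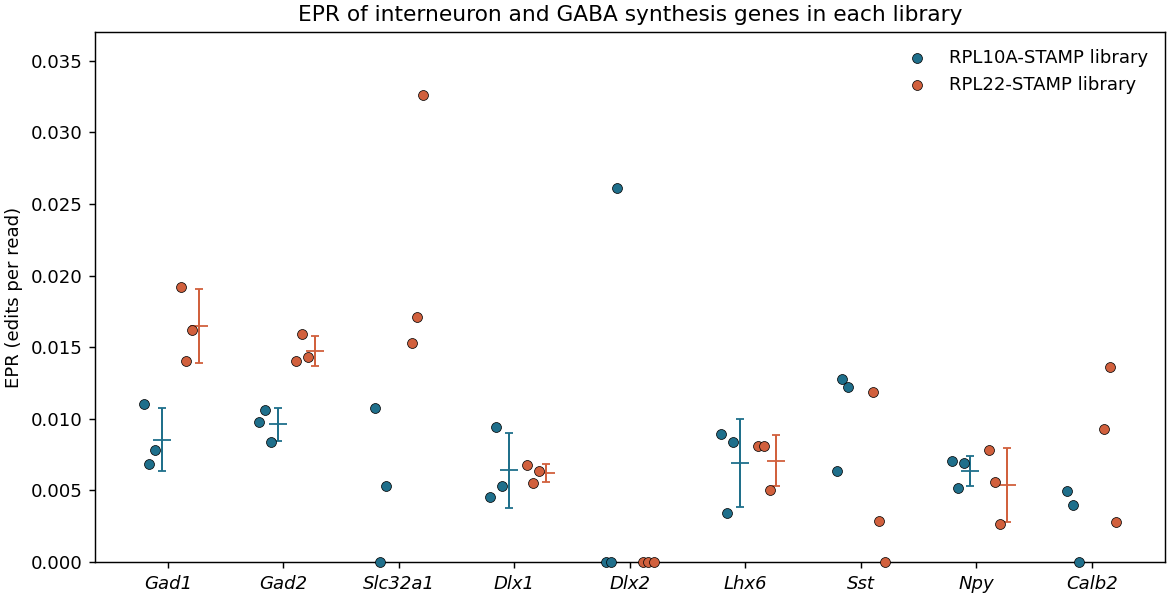
The EPR (edits per read, linear axis) of each gene is plotted for each library, with RPL10A-STAMP replicates 1 to 3 and RPL22-STAMP replicates 1 to 3 from left to right; bars give the mean ± SD (n = 3) for the 5 genes edited in all 6 libraries. The variants separate for *Gad1*, *Gad2* and *Slc32a1* and overlap for the other genes, and 8 of the 54 values are 0.

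The transcription factors did not separate the variants, and *Dlx1* and *Lhx6* had low EPR. *Dlx1* (ENSMUSG00000041911, plus strand, chromosome 2 from 71528113 to 71533981) and *Dlx2* (ENSMUSG00000023391, minus strand, chromosome 2 from 71543408 to 71546754) are neighbours that lie 9426 bases apart. Neither *Dlx1* nor *Lhx6* passed the test, and *Dlx2* was edited in a single library.

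The EPR of *Dlx1* was 0.00453, 0.00942 and 0.00529 in the RPL10A-STAMP libraries and 0.00674, 0.00549 and 0.00638 in the RPL22-STAMP libraries. Its highest and its lowest value both came from RPL10A-STAMP, and the RPL22-STAMP libraries lay between them. The RPL10A-STAMP mean was 0.00641 ± 0.00263 and the RPL22-STAMP mean 0.00620 ± 0.000640 (SD, n = 3 each), and the log2 fold change was 0.15 (standard error 0.15, 95% interval -0.19 to 0.50, limma adjusted p = 0.519). The antisense gene *Dlx1as* overlaps 6.21% of its exon bases.

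*Dlx2* was listed at 0 in RPL10A-STAMP replicates 1 and 2 and in all 3 RPL22-STAMP libraries, and at 0.0261 in RPL10A-STAMP replicate 3 (exact permutation test, two-sided, p = 1). That single value was higher than any value of *Dlx1* or *Lhx6*, and the number of reads behind it is unknown.

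*Lhx6* (ENSMUSG00000026890, minus strand, chromosome 2 from 36081953 to 36105408) had an EPR of 0.00896, 0.00340 and 0.00840 in the RPL10A-STAMP libraries and 0.00808, 0.00813 and 0.00504 in the RPL22-STAMP libraries. In each variant 2 libraries were close together and 1 was lower, and the ranges overlapped. The RPL10A-STAMP mean was 0.00692 ± 0.00306 and the RPL22-STAMP mean 0.00708 ± 0.00177 (SD, n = 3 each), and the log2 fold change was 0.18 (standard error 0.19, 95% interval -0.28 to 0.63, limma adjusted p = 0.577).

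The subtype markers *Sst*, *Npy* and *Calb2* did not separate the variants either, and each varied widely between the RPL22-STAMP libraries. *Sst* (ENSMUSG00000004366, minus strand, chromosome 16 from 23889573 to 23890958), which encodes the inhibitory peptide somatostatin, had an EPR of 0.00633, 0.0128 and 0.0122 in the RPL10A-STAMP libraries and 0.0119, 0.00287 and 0 in the RPL22-STAMP libraries. RPL22-STAMP replicate 1 lay among the RPL10A-STAMP values, and the other RPL22-STAMP libraries lay below all of them (exact permutation test, two-sided, p = 0.2).

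*Npy* (ENSMUSG00000029819, plus strand, chromosome 6 from 49822710 to 49829507), which encodes neuropeptide Y, had an EPR of 0.00706, 0.00513 and 0.00688 in the RPL10A-STAMP libraries and 0.00783, 0.00559 and 0.00268 in the RPL22-STAMP libraries. RPL22-STAMP held both the highest and the lowest of these values. The RPL10A-STAMP mean was 0.00636 ± 0.00106 and the RPL22-STAMP mean 0.00537 ± 0.00258 (SD, n = 3 each), and the log2 fold change after scaling was 0.05 (standard error 0.19, 95% interval -0.40 to 0.49, limma adjusted p = 0.893).

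*Calb2* (ENSMUSG00000003657, minus strand, chromosome 8 from 110137502 to 110168210) had an EPR of 0.00498, 0.00394 and 0 in the RPL10A-STAMP libraries and 0.00929, 0.0136 and 0.00282 in the RPL22-STAMP libraries. The 2 highest values came from RPL22-STAMP, but its replicate 3 lay below 2 of the RPL10A-STAMP libraries (exact permutation test, two-sided, p = 0.3). Under the filter of at least 3 edited libraries, the log2 fold change was 0.60 for *Calb2* (limma adjusted p = 0.272) and -0.33 for *Sst* (limma adjusted p = 0.649).

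Of the 9 genes, 5 were edited in all 6 libraries and were tested, and 4 (*Slc32a1*, *Dlx2*, *Sst* and *Calb2*) were not. *Gad2* was the 1 called gene, with RPL22-STAMP higher, and *Gad1* and *Gad2* were the 2 with an unadjusted limma p under 0.05, which 30.9% of all tested genes had. Over all 8046 tested genes 14.3% were called, 5.77% with RPL22-STAMP higher and 8.51% with RPL10A-STAMP higher, against which a single call among 5 genes gives no share to compare. The median log2 fold change was 0.18 over the 5 genes and 0.01 over all tested genes. Without the scaling the median gene moved to -0.18, and RPL22-STAMP was higher in 129 of 1085 calls, against 464 of 1149 with it.

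On the deposited scale the variants did not overlap for 3 of the 9 genes, all with RPL22-STAMP higher. Among the 12811 genes edited in at least 1 library, 4.93% had this order and 20.3% the opposite one, which none of the 9 genes had. After scaling the same 3 of 9 genes did not overlap, and 12.3% of the 12811 genes had RPL22-STAMP higher in this way. Because the 9 genes were chosen with earlier results of these data known, these shares are no test of the list.

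*Gad1* and *Gad2* were then set against each other within each library, where both share the virus, the culture and the depth. EPR divides edits by the reads of the same gene, so that gene length enters both terms. The log2 ratio of *Gad1* over *Gad2* was 0.17, -0.64 and -0.11 in the RPL10A-STAMP libraries and 0.46, -0.18 and 0.18 in the RPL22-STAMP libraries. *Gad1* was thus higher in 3 of 6 libraries, in 1 of RPL10A-STAMP and 2 of RPL22-STAMP. The mean was -0.02 ± 0.38 (SD, n = 6; exact sign permutation test, two-sided, p = 0.844, where 0.0313 is the smallest possible). Its sign rested on single libraries, since it was 0.10 without RPL10A-STAMP replicate 2 and 0.01 without RPL22-STAMP replicate 2. The ratio was 0.34 higher with RPL22-STAMP, which was within the spread between libraries (exact permutation test, two-sided, p = 0.4).

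The deposited EPR is not normalized between libraries, and the median over edited genes ran from 0.00907 to 0.0154, with 9892 to 11195 edited genes per library. Ranks among the edited genes of a library do not depend on its overall level of EPR, though they do depend on which genes were edited in it. Of the 46 member values above 0, 33 lay below the median edited gene of their library, as the plot of ranks shows.

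*Gad1* moved from percentiles of 46.7, 18.6 and 21.2 among the edited genes of the RPL10A-STAMP libraries to 83.2, 56.1 and 66.6 in the RPL22-STAMP libraries. *Gad2* moved from 40.8, 35.1 and 23.7 to 71.4, 62.2 and 60.6. Both genes were thus below the median edited gene in every RPL10A-STAMP library and above it in every RPL22-STAMP library. The share of all edited genes with this order of ranks was not counted, so it cannot be called particular to them.

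*Slc32a1* lay at percentiles 45.7 and 10.5 in the RPL10A-STAMP libraries in which it was edited and at 75.0, 65.7 and 88.6 in the RPL22-STAMP libraries. *Dlx1* (10.6 to 34.6), *Lhx6* (4.73 to 43.8) and *Npy* (4.24 to 42.0) stayed below the median edited gene in all 6 libraries. Ordered by their median percentile, among the 5 genes edited in all 6 libraries, *Npy*, *Dlx1* and *Lhx6* were followed by *Gad2* and *Gad1*, and neighbours in this order overlapped in range.

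**Figure D3:**
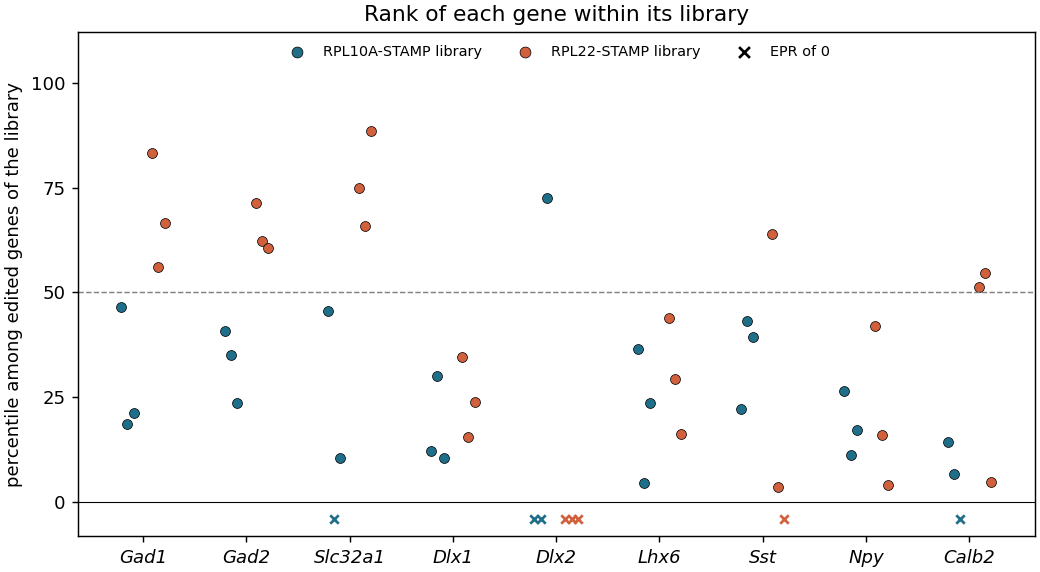
Each gene's percentile among the edited genes of its own library is plotted for the 6 libraries, with crosses under the axis for an EPR of 0 and a dashed line at the median edited gene. *Gad1*, *Gad2* and *Slc32a1* lie above the line in all 3 RPL22-STAMP libraries and, where edited, below it in the RPL10A-STAMP libraries, and *Dlx1*, *Lhx6* and *Npy* lie below it in all 6. The shares of all edited genes with these patterns were not counted.

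Of the 9 genes 6 lie on chromosome 2, and none overlaps another listed gene on its own strand. The longest-coding transcripts ran from 566 bases (*Npy*) and 721 bases (*Sst*) to 5744 bases (*Gad2*), against quartiles of 2244, 3455 and 5053 bases over 8039 tested genes. GC content was 44.1% in *Gad2* and 48.4% in *Gad1*, at or below the median tested gene (48.9%), whereas the other 7 ran from 53.5% (*Calb2*) to 61.9% (*Slc32a1*), around or above the upper quartile of 53.6%. C made up 33.0% of the transcripts of *Slc32a1* and *Dlx2* and 22.8% of that of *Gad2*, with quartiles of 21.3%, 23.9% and 26.7%.

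GC content moved with the difference between the variants across all tested genes, and this bears on each gene in a different way. The 8039 tested genes with a transcript were put in 4 bins of 2009 or 2010 genes by GC content. In the lowest bin, which holds *Gad2*, the median log2 fold change was -0.27, and 3.08% of genes were at or above the value of *Gad2*. In the next bin, which holds *Gad1*, the median was -0.07. In the highest bin, which holds *Dlx1*, *Lhx6* and *Npy*, it was 0.25, and 76.7% of genes were above 0. In this bin 23.0% of genes were at or above the value of *Gad2*. *Slc32a1*, whose GC content of 61.9% lies in the range of this bin, was not tested and is in no bin. No fold change with the GC trend removed was obtained for it.

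With each library's trend with GC content removed, *Gad2* had a log2 fold change of 0.76 (limma adjusted p = 0.0246) and *Gad1* one of 0.74 (limma adjusted p = 0.0723). The other 3 tested genes turned to slightly negative values, with -0.088 for *Dlx1*, -0.086 for *Lhx6* and -0.16 for *Npy*, none of them called. The direction of these 3 is therefore not settled by the data.

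Genes that make, clear or recycle GABA and its precursors outside the 9 genes gave no call. Of 8 such genes 7 were tested and 0 passed in either direction (limma), while 1 had an unadjusted limma p under 0.05. Over all tested genes these shares were 14.3% and 30.9%, so that 0 of 7 genes gives no share to compare. The median log2 fold change was 0.23, against 0.01 over all tested genes. *Abat*, which encodes the transaminase that breaks down GABA, had a mean EPR of 0.0245 ± 0.00223 in the RPL10A-STAMP libraries and 0.0310 ± 0.00462 in the RPL22-STAMP libraries (SD, n = 3 each). Its log2 fold change was 0.53 (standard error 0.18, limma adjusted p = 0.101). *Aldh5a1*, which acts in the following step of GABA breakdown, was at -0.06 (limma adjusted p = 0.795).

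Of 17 further transcription factors of interneurons 6 were tested, with a median log2 fold change of 0.08. Of these 0 passed in either direction and 0 had an unadjusted limma p under 0.05, against 14.3% and 30.9% over all tested genes. Another 7 were edited in only some libraries and 4 were listed at 0 in all. The 3 with the highest EPR were *Satb1*, *Etv1* and *Maf*, with log2 fold changes of -0.09, -0.61 and 0.34 (limma adjusted p = 0.694, 0.264 and 0.196). *Etv1* passed without RPL22-STAMP replicate 2 (-0.99, limma adjusted p = 0.0387). Bulk EPR does not show in which cells these genes were edited.

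Among 31 further peptides, receptors and subtype markers 14 were tested and 4 passed, 2 in each direction, with a median log2 fold change of 0.29 (7 had an unadjusted limma p under 0.05). Over all tested genes these shares were 14.3% and 30.9%. The calls thus did not run one way. *Nos1*, the neuronal nitric oxide synthase, rose from 0.00759 ± 0.000812 (SD, n = 3) with RPL10A-STAMP to 0.0138 ± 0.00374 (SD, n = 3) with RPL22-STAMP (log2 fold change 0.62, standard error 0.17, limma adjusted p = 0.0487). *Synpr*, which encodes the vesicle protein synaptoporin, was also higher with RPL22-STAMP (0.55, standard error 0.15, limma adjusted p = 0.0478).

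*Calb1*, which encodes the calcium-binding protein calbindin, fell from 0.0393 ± 0.00726 (SD, n = 3) with RPL10A-STAMP to 0.0132 ± 0.00383 (SD, n = 3) with RPL22-STAMP (log2 fold change -0.81, standard error 0.19, limma adjusted p = 0.0342). *Npy1r*, which encodes a receptor of neuropeptide Y, fell from 0.0160 ± 0.00270 to 0.00589 ± 0.00172 (SD, n = 3 each; log2 fold change -0.51, standard error 0.14, limma adjusted p = 0.0494). Both are also made by excitatory neurons. For no gene of this list, whichever way it moved, was it tested which cells carried the edits. *Cck*, which encodes the peptide cholecystokinin and had the highest EPR of these genes, was at 0.69 (standard error 0.31, limma adjusted p = 0.185). The list had 0 calls without RPL10A-STAMP replicate 1, 2 or 3, 1 without RPL22-STAMP replicate 1 or 3, and 2 without RPL22-STAMP replicate 2.

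**Figure D4:**
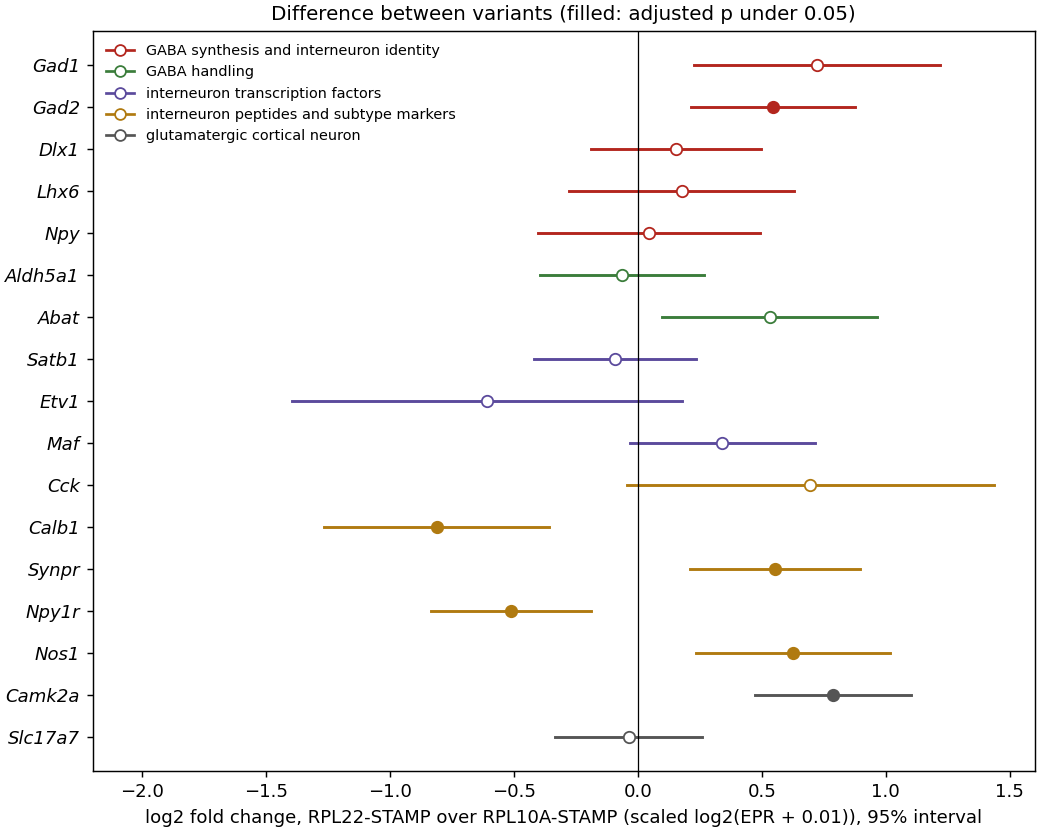
The log2 fold change of RPL22-STAMP over RPL10A-STAMP is plotted with its 95% interval for the 5 tested genes of GABA synthesis and interneuron identity, for named genes of the other lists and for *Camk2a* and *Slc17a7*, with filled points for a limma adjusted p under 0.05. *Gad2*, *Synpr*, *Nos1* and *Camk2a* are filled to the right of 0, and *Calb1* and *Npy1r* to the left.

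Markers of the cell types that the culture could hold were described by their EPR, which divides by each gene's own reads and so does not measure how many cells of a type were present. All 6 neuron markers and all 6 markers of glutamatergic cortical neurons were edited in every library, and the 3 endothelial markers were listed at 0 in all of them. The sums below add deposited EPR, which is not scaled between libraries. Its median over edited genes was 0.0118 to 0.0154 with RPL10A-STAMP and 0.00907 to 0.0125 with RPL22-STAMP. The summed EPR of the 9 genes was 0.0521 to 0.0804 in the RPL10A-STAMP libraries and 0.0801 to 0.0923 in the RPL22-STAMP libraries. The value of 0.0804, from replicate 3, includes the lone *Dlx2* value of 0.0261. The 6 neuron markers summed to 0.134 to 0.166 and 0.106 to 0.130. The 5 astrocyte markers summed to 0.140 to 0.238 and 0.109 to 0.197. Of the 4 astrocyte markers tested 0 were called, against 14.3% of all tested genes. The 6 glutamatergic markers summed to 0.182 to 0.257 and 0.129 to 0.159. Of the oligodendrocyte lineage markers 1 of 5 was tested and 1 was listed at 0 in all libraries (sums 0.0175 to 0.115 and 0.0563 to 0.0919), and of the microglial markers 0 of 4 were tested and 2 were listed at 0 in all (sums 0 to 0.0143 and 0 to 0.0714). The highest by mean EPR were *Syt1* and *Snap25* among the neuron markers, *Aqp4* and *Gja1* among those of astrocytes, and *C1qa* and *Cx3cr1* among those of microglia. The part of other cell types in the difference of *Gad1* and *Gad2* was not tested.

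The excitatory markers did not move one way, with 1 of 6 called with RPL22-STAMP higher and 2 with RPL10A-STAMP higher. Over all tested genes these shares were 5.77% and 8.51%. *Camk2a*, a kinase subunit of excitatory neurons, was higher with RPL22-STAMP (0.0551 ± 0.00720 against 0.0799 ± 0.0173, SD, n = 3 each; log2 fold change 0.79, standard error 0.13, limma adjusted p = 0.0127). *Slc17a7*, which encodes the vesicular glutamate transporter VGLUT1, was at -0.04 (limma adjusted p = 0.864). *Slc17a6* (-1.48, limma adjusted p = 0.0185), which encodes VGLUT2 and was named after its values were seen, was lower with RPL22-STAMP.

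The genes whose scaled log2 EPR over the 6 libraries was most like that of *Gad1*, among the 8046 tested genes, were *Kcnc1* (Pearson r = 0.992), *Pxdn* (0.988) and *Uqcrc1* (0.988). *Gad2* ranked 86 in this order with r = 0.944. The genes most like *Gad2* were *Pla2g7* (0.998), *Srrm2* (0.991) and *Cacfd1* (0.990), and *Gad1* ranked 159. These are descriptions over 6 points that share the variant, the library and its scaling.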

How the data were processed

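EPR was taken from 6 bulk libraries, 3 per variant, grouped by the sample labels. The authors trimmed reads with cutadapt 1.18, aligned them with STAR 2.5.2b to mm10, used SAILOR for edit calls and featureCounts 1.5.3 for reads per gene, and deposited the ratio of edits to reads per gene without normalization between libraries. The ratio is not a count, so no count model was fitted, and depth per library is unknown. Gene identifiers were named through GENCODE mouse release M21 (GRCm38; 31011 of 31053 matched).

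Libraries were scaled so that their medians over the 8046 genes with edits in all 6 equalled the geometric mean of those medians. log2(EPR + 0.01) was fitted with limma 3.58.1 (R 4.3.3, variance trend), with Benjamini-Hochberg adjustment over the 8046 genes and calls at an adjusted p under 0.05. The script was tested on simulated data. Single values were compared with exact permutation tests (numpy 2.4.6). Transcript properties used the longest-coding transcript of a gene, and trends were removed with splines of 4 degrees of freedom.

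The genes and lists were chosen with earlier results of these data known. Named were the 9 genes, called genes and the 3 with the highest EPR of each list, the most alike genes, and the 2 highest markers per list among those counted. *Tac3* was not matched, and some genes that this rule names are not reported here. Alternatives covered pseudocounts, scaling, filters, GC content, length, the replicate number as a block, the methods' t-test, genes the study removed as Dox-induced, and each library left out.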

Additional observations from a re-analysis of the deposited data

How the results depend on the processing

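The reads behind each ratio are unknown, and zeros keep 4 of the 9 genes out of the test. *Gad1* was above 0 in all 19 alternatives (limma adjusted p 0.0488 to 0.179) and passed in 1, with the replicate block (0.72, limma adjusted p = 0.0488). *Gad2* was above 0 in all 20 and passed in 6 (adjusted p 0.0246 to 0.221). It did not pass with a pseudocount of 0.001 (0.93) or 0.1 (0.11), no scaling (0.34), genes edited in at least 3 libraries (0.54) or no filter (0.54), the replicate block (0.54, limma adjusted p = 0.0795), GC trend and replicate block (0.76), the methods' t-test (0.62) or with any library left out (0.45 to 0.61). After the scaling, deviations from the mean of each variant hardly correlated between same-numbered libraries (r = 0.0437, 0.0464 and -0.00546). The scaling removes any shift shared by a whole library, so these values cannot tell whether replicate numbers pair the libraries. The cause of the changes between settings was not tested.

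*Dlx1* turned to -0.0072 without scaling, -0.088 with the GC trend removed, with and without the replicate block, and -0.047 with the methods' t-test. *Lhx6* turned to -0.086 with the GC trend removed, with and without the replicate block. *Npy* turned to -0.10 without scaling, -0.16 with the GC trend removed, with and without the replicate block, -0.16 with the length trend removed, -0.24 with the methods' t-test, and ran from -0.15 to 0.20 with a library left out. None of these values was called. The mean log2 ratio of *Gad1* over *Gad2* ran from -0.12 to 0.10 with a library left out and was 0.10 without RPL10A-STAMP replicate 2 and 0.01 without RPL22-STAMP replicate 2.

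Of the 9 genes 0 were called, against 1, with either other pseudocount, no scaling, at least 3 libraries, no filter, GC trend and replicate block, the methods' t-test or any library left out (0 to 0). With the replicate block alone the 1 call was *Gad1* in place of *Gad2*. The transcription factors went from 0 calls to 1 with at least 3 libraries or no filter, and ran from 0 to 1 with a library left out. The call under these filters was *Sp8*, which entered through the RPL10A-STAMP libraries, is listed at 0 in all RPL22-STAMP libraries, and supports nothing about the list. The peptides and subtype markers went from 4 calls to 2 with a pseudocount of 0.1, no scaling or quantile normalization. They also had 2 with the GC trend removed or Dox-induced genes left out, and 1 with at least 3 libraries. With no filter, the replicate block, GC trend and replicate block or the methods' t-test there were 0. With a library left out there were 0 to 2. The call with at least 3 libraries was *Htr3a*, and *Id2* was 1 of the 2 with the GC trend removed. Neither gene was among the 4.

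Over all tested genes 1149 calls became 603 with the replicate block, 663 with the GC trend removed, 227 with both, 754 with genes edited in at least 3 libraries, 569 with no filter, and 369 to 873 with a library left out. The methods' t-test called 0 after Benjamini-Hochberg adjustment. At the threshold of the methods 1924 genes passed, *Gad1* (0.95) and *Gad2* (0.62) among them. Leaving out the Dox-induced genes gave no value for *Gad1* and *Dlx1*, which are among them. Only the available part of the study's list, 2707 genes, was used, and other genes may belong to it.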

Other observations

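Among the other interneuron genes, 3 with zeros in some libraries stood out after their values were seen. *Sp8*, a transcription factor of interneurons of the caudal ganglionic eminence, had an EPR of 0.00709, 0.0118 and 0.0111 in the RPL10A-STAMP libraries and was listed at 0 in all 3 RPL22-STAMP libraries. *Nr2f2*, a nuclear receptor of the same lineage, showed the opposite order, listed at 0 in all 3 RPL10A-STAMP libraries and at 0.00771, 0.00345 and 0.00889 in the RPL22-STAMP libraries. *Htr3a*, which encodes a serotonin receptor subunit, was at 0.0117, 0.0104 and 0 in the RPL10A-STAMP libraries and at 0.0266, 0.0449 and 0.0877 in the RPL22-STAMP libraries. These genes were picked for their pattern, so no test is given.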
